A study of Mus musculus with 6 samples.

Results

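The 8 genes described here encode receptors that restrain T cells (Lag3, Tigit, Havcr2, Cd160 and Btla), a nuclear factor that accompanies those receptors in exhausted T cells (Tox), and 2 surface enzymes that make adenosine from extracellular nucleotides (Entpd1 and Nt5e). They were chosen by name, with earlier results of these data known. Each has 1 row in a table of 19048 transcript rows from 16911 genes. The mice were of the C57BL/6 strain. Naive CD4 T cells were studied, which are helper lymphocytes waiting for a first antigen. There were 3 libraries from Trim28 knockout mice (KO1 to KO3) and 3 from wild-type littermates (WT1 to WT3). The cells were enriched with magnets and flow sorted, and the libraries are labelled D0. The sources used here do not give the age of the mice, whether animals were pooled, or the Cre or allele behind the deletion. Trim28 is a nuclear corepressor, recruited to chromatin by KRAB zinc finger proteins.

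Inhibitory receptors are induced on T cells after antigen stimulation and on regulatory T cells, and several of them recruit phosphatases that dampen signals from the T cell receptor. Lag3 binds MHC class II, Tigit binds the poliovirus receptor Pvr and nectins, Havcr2 (Tim3) binds galectin 9 among other ligands, and Cd160 and Btla both bind the tumor necrosis factor receptor family member Tnfrsf14. Entpd1 (CD39) strips phosphates from extracellular ATP and ADP to leave AMP. Nt5e (CD73) turns that AMP into adenosine, which slows T cells through its receptors.

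Values are normalized read counts, that is, reads divided by a size factor of the library. Depth ran from 22005759 to 44372701 reads in the knockout libraries and from 23438722 to 40586195 in the wild-type libraries. Trim28 stood at 738, 628 and 1247 in KO1 to KO3, against 8429, 8287 and 9428 in WT1 to WT3. Cd4 was abundant in all libraries, between 27990 and 32564 in the knockout and between 31880 and 34970 in the wild type, and of 7 T cell markers 1, Thy1, fell in the knockout (log2 fold change -0.77). Of 10 naive markers Igfbp4 and Dapl1 fell (log2 fold changes -1.35 and -0.68) and the others did not pass, where 0.315% of all rows fell. The library KO3 stood apart in markers of other cells. The summed level of 12 B cell markers was 476, 402 and 2451 in KO1, KO2 and KO3, against 401 to 598 in the wild type. Of the 12, 10 were highest in KO3, where 19.3% of all tested rows were. The Y-linked gene Ddx3y was at 5422 in KO2 and 5801 in WT1 and at 0 in the other 4 libraries, while Xist was at 12289 or above in all 6.

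No difference between Trim28 knockout and wild-type cells passed the test for any of the 8 genes. All 8 were tested, since their mean over the libraries reached 10. Havcr2 reached it only through KO3, since its mean was 1.78 over KO1 and KO2 and 8.56 over the wild type. In limma, fitted over 13022 rows, 0 of the 8 genes passed a Benjamini-Hochberg adjusted p of 0.05, where 1.51% of all rows did. The adjusted p of the 8 ran from 0.356 to 0.982. At an unadjusted p under 0.05 there was 1 of the 8, Tigit, where 12.7% of all rows were, and limma's voom weights on the recovered reads gave 0 and 1 of the 8, where 1.17% and 12.4% of rows passed. The knockout and wild-type values overlapped for each of the 8, and they lay apart in 18.8% of all tested rows. All 8 log2 fold changes were above 0, where 50.4% of rows were, with a median of 0.42 against 0.0019 over all tested rows. The 8 genes were chosen with earlier results of these data known, so their shared direction is not independent evidence of a difference. That of Havcr2 was -1.70 without KO3, and -0.14 when 0.5 instead of 1 was added before the log2. A p that misses the threshold does not show that a level was the same, and the limits of each difference follow after the genes. In bulk RNA, fewer cells of a type and less RNA per cell cannot be told apart.

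**Figure D1:**
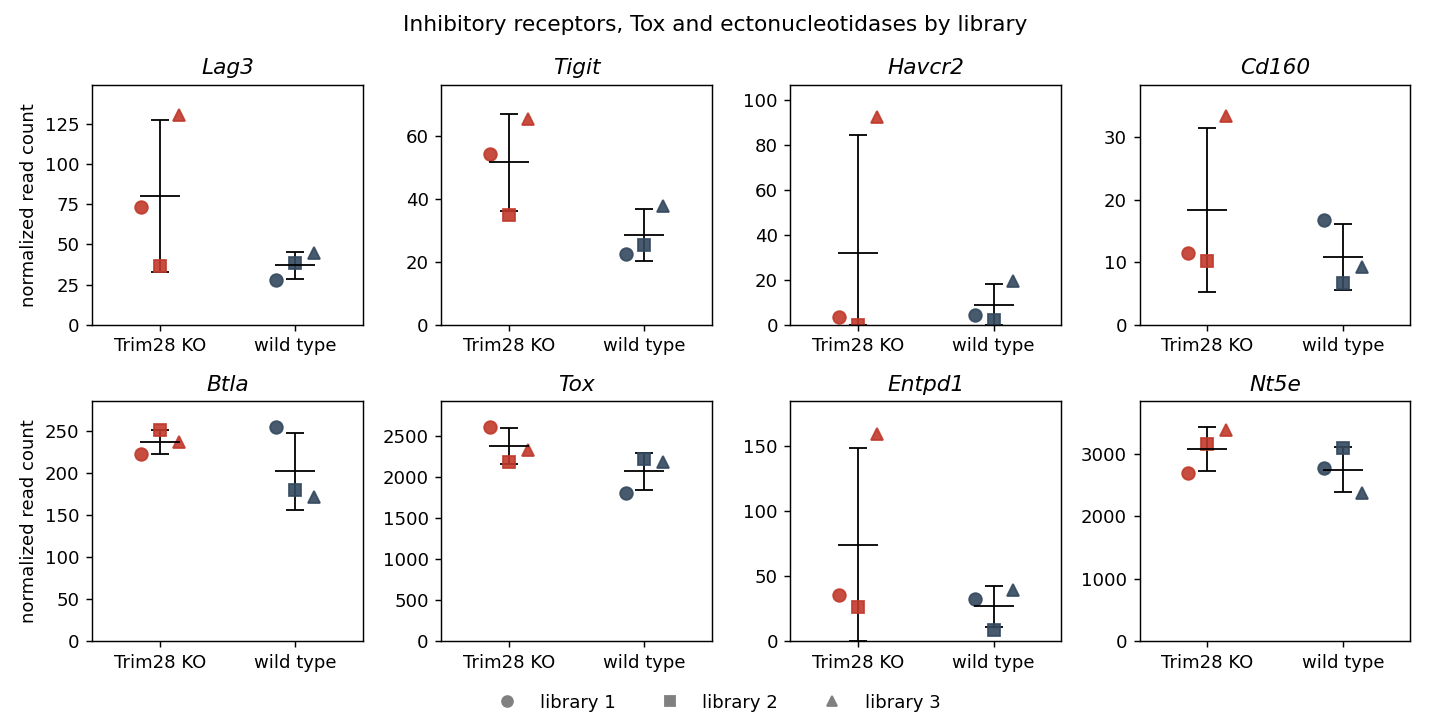
Normalized read count (vertical axis, from 0) of each of the 8 genes in the 3 Trim28 knockout libraries and the 3 wild-type libraries, with the group mean as a bar and the SD as whiskers, which are drawn no lower than 0. The groups overlap in every panel, and the triangle of KO3 lies far above KO1 and KO2 for Havcr2 and Entpd1.

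Lag3, the receptor for MHC class II (chromosome 6, 124904359 to 124912434 of mm10), was at 73.5, 36.4 and 131 in KO1, KO2 and KO3, against 27.9, 38.5 and 44.8 in WT1, WT2 and WT3. KO1 and KO3 lay above all wild-type libraries, and KO2 lay among them. The mean was 80.2 ± 47.5 in the knockout and 37.1 ± 8.55 in the wild type (SD, n = 3 each), which is 0.94 higher on the log2 scale (SE 0.44, limma adjusted p 0.430). Without KO3 the log2 fold change was 0.50 (SE 0.37, limma adjusted p 0.474), and without KO2 it was 1.41, with an adjusted p of 0.203.

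Tigit, which competes with the costimulatory receptor Cd226 for their shared ligands (chromosome 16, 43626137 to 43665125), was at 54.3, 35.0 and 65.4 in the knockout libraries and at 22.3, 25.3 and 37.8 in the wild-type libraries. KO2 lay below WT3, and that pair alone made the groups overlap. The mean was 51.5 ± 15.4 in the knockout and 28.5 ± 8.24 in the wild type (SD, n = 3 each). Its log2 fold change of 0.82 (SE 0.34) had the smallest p of the 8 genes, an unadjusted 0.0391 and an adjusted 0.356 in limma. By exact permutation of the libraries its two-sided p was 0.2, and 3 against 3 cannot go below 0.1. Without KO3 the log2 fold change was 0.63 (limma adjusted p 0.357). The annotated span of Tigit overlaps that of Zbtb20, which was at 453 to 622 in the knockout and 454 to 508 in the wild type. The sources used here do not say whether reads were counted by strand, so the count of Tigit is uncertain. The annotated spans of Tox and Entpd1 also overlap those of long non-coding RNAs or pseudogenes that have no row here. Their counts are uncertain in the same way.

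Havcr2, a receptor of exhausted and type 1 helper T cells that myeloid and dendritic cells also carry (chromosome 11, 46454931 to 46481255), was nearly absent except in 2 libraries. It was at 3.57 (5 reads), 0 and 92.5 (116 reads) in KO1, KO2 and KO3. In WT1, WT2 and WT3 it was at 4.18 (3 reads), 2.20 (2 reads) and 19.3 (25 reads). KO3 was therefore the highest library and KO2 the lowest, both of the same group. The 0 of KO2 allows a level of up to 4.37, the worth of 3 reads there. The exact 95% Poisson interval of KO3, 76.4 to 111, lay wholly above that of WT3, 12.5 to 28.5. Intervals and limits of this kind cover counting error only and leave out the spread between libraries. They may be too narrow even for counting error, because PCR copies are not separate molecules. The log2 fold change was 0.11 (SE 1.53, limma adjusted p 0.982) with all libraries and -1.70 (SE 1.1, limma adjusted p 0.403) without KO3, and its sign also turned when WT1 or WT2 was left out.

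Cd160 and Btla, both receptors for Tnfrsf14, differed in their level and in their spread. Cd160, known from natural killer and CD8 T cells (chromosome 3, 96798763 to 96829351), was at 11.4, 10.2 and 33.5 in the knockout libraries and at 16.7, 6.60 and 9.27 in the wild-type libraries. Only KO3 stood above the wild-type range, and its exact 95% Poisson interval of 24.1 to 45.2 overlapped that of WT1, 8.65 to 29.2. The log2 fold change of Cd160 was 0.60 (SE 0.59, limma adjusted p 0.721), and 0.08 without KO3.

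Btla, an inhibitory receptor of B and T cells (chromosome 16, 45223705 to 45252895), was at 223, 251 and 236 in KO1, KO2 and KO3, against 254, 179 and 171 in WT1, WT2 and WT3. All knockout libraries lay inside the wild-type range, which WT1 alone held up. Its mean was 236 ± 14 in the knockout and 202 ± 45.4 in the wild type (SD, n = 3 each), and the log2 fold change was 0.25 (SE 0.18, limma adjusted p 0.607). In KO3, the library with the highest summed B cell markers, Btla was 0.997 times the mean of KO1 and KO2. The part of B cells in the level of Btla was not tested.

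Tox, a DNA-binding factor needed for CD4 T cell development in the thymus and for the persistence of exhausted CD8 T cells (chromosome 4, 6686353 to 6991557), was abundant in these cells. It was at 2616, 2184 and 2334 in KO1, KO2 and KO3, against 1807, 2221 and 2179 in WT1, WT2 and WT3. Only KO2, which lay below WT2, kept the groups from separating. The mean was 2378 ± 219 in the knockout and 2069 ± 228 in the wild type (SD, n = 3 each), and the log2 fold change was 0.20 (SE 0.11, limma adjusted p 0.511). Without KO3 the value was 0.21.

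The ectonucleotidases stood at very different levels. Nt5e, which completes the step to adenosine and is known from naive, anergic and regulatory T cells (chromosome 9, 88327609 to 88372089), was at 2682, 3158 and 3382 in the knockout libraries and at 2767, 3097 and 2372 in the wild-type libraries. KO2 and KO3 lay just above the wild-type range and KO1 lay inside it. Its log2 fold change was 0.17 (SE 0.13, limma adjusted p 0.637), and it was 0.09 without KO3 and 0.06 without WT3.

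Entpd1, which starts the pathway and is known from regulatory T cells, B cells and myeloid cells (chromosome 19, 40612366 to 40741602), was at 35.7, 26.2 and 159 in KO1, KO2 and KO3, against 32.1, 8.80 and 39.4 in WT1, WT2 and WT3. KO1 and KO2 lay inside the wild-type range, and KO3 lay far above every other library. The KO3 value was 5.15 times the mean of KO1 and KO2, and its exact 95% Poisson interval of 138 to 183 lay above that of WT3, 29.3 to 51.8. The log2 fold change of Entpd1 was 1.20 (SE 0.74, limma adjusted p 0.556) with all libraries, the largest estimate of the 8 genes, and 0.42 (SE 0.57, adjusted p 0.716) without KO3. Without WT2, its lowest library, the estimate was 0.57.

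Havcr2 and Entpd1 shared their highest library, KO3, and the next highest, WT3, and the DNA before their starts is shown for that reason. The 250 bases before each start were taken from RefSeq promoters of GRCm38.p6, the assembly of mm10, which matched 6 of the 8 genes. The Havcr2 window is chr11:46454681-46454930 on the plus strand. The Entpd1 window is chr19:40659520-40659769 on the plus strand, 1 of 2 Entpd1 windows. It ends 1 base before position 40659770, the GENCODE start of the transcript that its row names, while the other window, chr19:40612116-40612365, lies before the first base of the gene span and held 0 matches to either motif searched. Capitals mark GGAAA, the core of sites for NFAT factors that act after T cell stimulation, and TGANTCA, the site of AP-1 factors, on either strand.
Havcr2: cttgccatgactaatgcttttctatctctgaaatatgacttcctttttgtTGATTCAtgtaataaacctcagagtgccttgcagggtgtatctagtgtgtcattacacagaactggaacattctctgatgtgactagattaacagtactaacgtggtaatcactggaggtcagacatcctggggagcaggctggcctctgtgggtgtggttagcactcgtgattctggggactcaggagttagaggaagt
Entpd1: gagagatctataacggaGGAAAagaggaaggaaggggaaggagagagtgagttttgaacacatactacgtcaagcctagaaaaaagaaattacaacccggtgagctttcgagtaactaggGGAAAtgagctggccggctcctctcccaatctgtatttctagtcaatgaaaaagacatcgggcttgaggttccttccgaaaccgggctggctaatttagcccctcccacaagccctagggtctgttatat
The Havcr2 window held 1 match to TGANTCA, found in 6.75% of the 32851 RefSeq promoter windows of this length, and 0 to GGAAA. The Entpd1 window held 2 matches to GGAAA and 0 to TGANTCA. At least 1 match to GGAAA was found in 55.6% of windows, and the share with 2 was not computed. The matches are a description of the letters and no measure of binding.

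The size of difference that these libraries allow was narrow for 3 genes and wide for 5. For Btla, Tox and Nt5e the 95% limits of the fold of knockout over wild type were 0.899 to 1.57, 0.962 to 1.38 and 0.917 to 1.37, so a 2-fold change in either direction lay outside them. For Tigit the limits were 1.04 and 3.02, and for Lag3 they were 0.958 and 3.83. The limits of Cd160 were 0.599 and 3.82, those of Entpd1 were 0.717 and 7.41, and those of Havcr2 were 0.0967 and 12.1. For each of these 5 low genes a 2-fold rise lay inside the limits, and the limits of Tigit, not adjusted for the number of rows, were the only ones of the 8 that did not include equal levels.

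**Figure D2:**
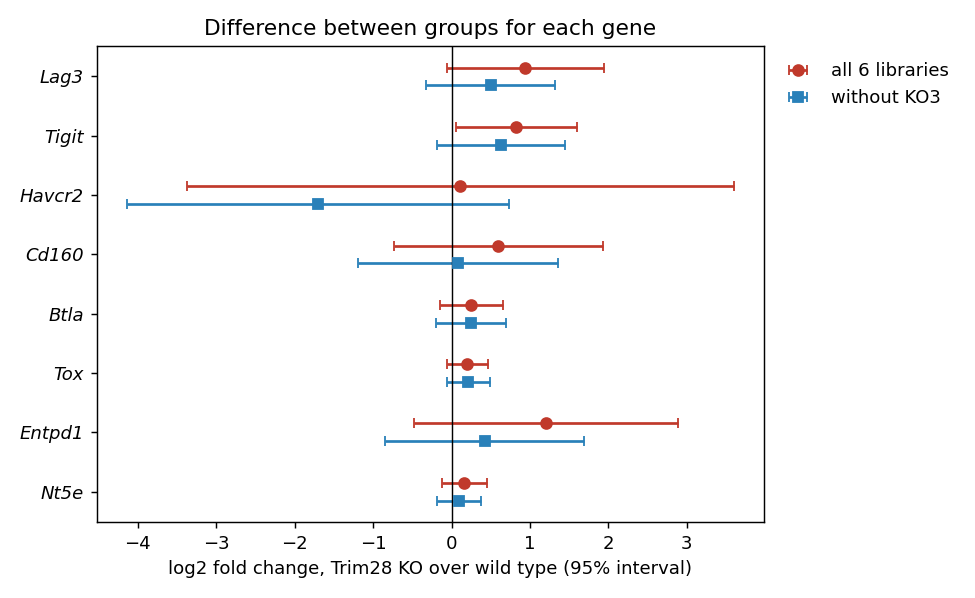
Log2 fold change of Trim28 knockout over wild type in limma (horizontal axis) with its 95% interval for each gene, for all 6 libraries (circles) and without KO3 (squares). The intervals of Btla, Tox and Nt5e are short and lie close to 0, that of Havcr2 reaches from -3.37 to 3.60, and the estimate of Havcr2 moves to -1.70 without KO3.

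The 8 genes stood at widely spaced levels. Per kilobase of transcript, Nt5e averaged 769 ± 89.4 normalized reads in the knockout and 687 ± 90.8 in the wild type, and Tox averaged 600 ± 55.3 in the knockout and 522 ± 57.5 in the wild type (SD, n = 3 each). Btla came next at 148 ± 8.73 in the knockout and 126 ± 28.4 in the wild type on the same scale. Tigit averaged 56.1 in the knockout and 31 in the wild type per kilobase, and Lag3 40.1 in the knockout and 18.5 in the wild type. The last 3 places were held by Cd160, at 16.4 in the knockout and 9.70 in the wild type, Entpd1, at 17.5 in the knockout and 6.34 in the wild type, and Havcr2, at 11.8 in the knockout and 3.15 in the wild type. Per kilobase, the wild-type ranges of Nt5e, Tox, Btla, Tigit and Lag3 did not overlap from one to the next, while those of Lag3 and Cd160, 13.9 to 22.4 and 5.89 to 14.9, did. Cd160, Entpd1 and Havcr2 also overlapped there. In knockout libraries the order of the first 5 was unchanged and the ranges of Tigit and Lag3, 38.1 to 71.1 and 18.2 to 65.3, overlapped.

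The knockout libraries did not vary alike for these genes. KO3 held the highest value of 6 of the 8 genes, where it held the highest value of 19.3% of all tested rows. It was at least 2 times the mean of KO1 and KO2 for 4 of the 8, Lag3 (2.38 times), Cd160 (3.10 times), Entpd1 (5.15 times) and Havcr2 (51.8 times), where 5.87% of all rows were. Tigit was 1.46 times that mean, Nt5e 1.16 times, and Btla and Tox were at 0.997 and 0.973 times. Havcr2 passed the filter on the mean only through its KO3 value, so its excess in KO3 is not independent of that filter. Without KO3 the median log2 fold change of the 8 genes was 0.23, 7 of the 8 lay above 0, where 49.3% of rows did, and 0 passed the adjusted threshold or an unadjusted p of 0.05, where 4.32% (2.76% higher and 1.55% lower) and 21.1% of rows did.

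Markers of other cells moved with the same library. Of 12 B cell markers, 14 myeloid and dendritic markers and 10 natural killer markers in the table, 10, 7 and 8 were highest in KO3. Over all tested rows, 19.3% were highest there. Cd8b1 of CD8 T cells was at 744, 695 and 4206 in the knockout and at 853, 557 and 1032 in the wild type. The summed myeloid and dendritic markers ran from 153 to 1646 in the knockout and from 127 to 754 in the wild type, and the natural killer markers from 2571 to 4588 in the knockout and from 2783 to 3309 in the wild type. Plasma cell markers summed to 571 to 4584 in the knockout and 574 to 1806 in the wild type. Jchain made up most of the largest sums, at 4180 in KO3 and 1485 in WT1. Of the 5 markers 4 were highest in KO3, while Prdm1 was at 360, 348 and 260 in KO1 to KO3. Activated or memory T cell markers were also highest in KO3 for 8 of 10 genes, and Cd44 and Itga4 were not. S100a4 was at 55.0, 52.5 and 895 in the knockout and at 96.2, 26.4 and 95.8 in the wild type. Cd44 was at 60.0, 84.5 and 68.5 in the knockout and at 89.2, 72.6 and 66.4 in the wild type. The sum of that list was 43818, 44512 and 46650 in KO1 to KO3, against 36647 to 43405 in the wild type. Of the regulatory T cell markers, 8 of 12 were highest in KO3, and the median log2 fold change of the 11 tested was 0.51. Il2ra, a chain of the interleukin receptor that activated and regulatory T cells carry, rose, at 358, 373 and 714 in the knockout and 172, 151 and 188 in the wild type (log2 fold change 1.43, limma adjusted p 0.0326), and the other 10 did not pass. Foxp3, which defines regulatory T cells and was too low to be tested, was at 11.4, 7.29 and 2.39 in the knockout and at 6.97, 9.90 and 9.27 in the wild type. Among the myeloid and dendritic markers, Mpeg1 was at 48.6, 46.6 and 499 in the knockout and 78.1, 24.2 and 131 in the wild type. Itgax was at 35.7, 8.74 and 292 in the knockout and at 39.0, 15.4 and 53.3 in the wild type. Others of that list were highest in WT1. S100a8 was at 0, 0 and 96.4 in the knockout and at 311, 0 and 88.1 in the wild type. S100a9 was at 0.714, 0 and 16.7 in the knockout and at 48.8, 0 and 15.4 in the wild type. Cd14, Cd68 and Csf3r were at 3.30 or below in all libraries. The part of these cells in the levels of Lag3, Cd160, Entpd1 and Havcr2 was not tested.

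**Figure D3:**
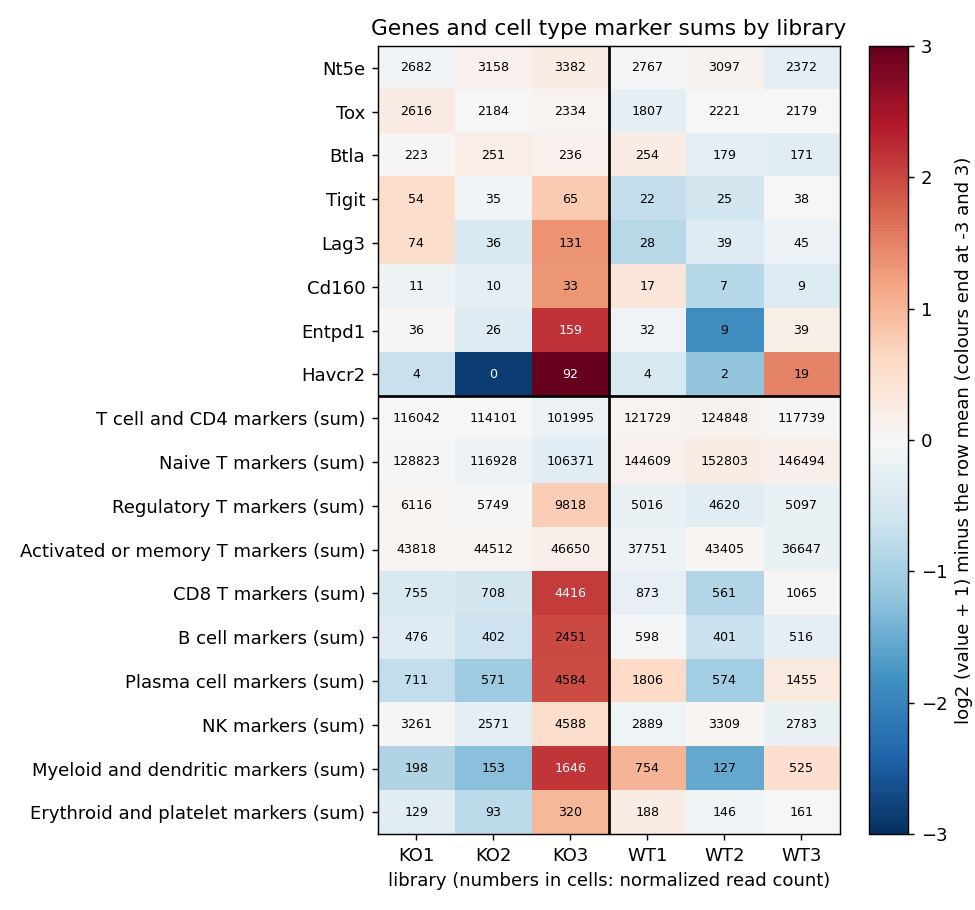
Normalized read count of the 8 genes and summed normalized read count of marker lists (rows) in each library (columns, knockout left of wild type), coloured by log2 of the value plus 1 minus the row mean. Havcr2, Entpd1 and the CD8, B cell, plasma cell and myeloid sums share their highest value in KO3, while Btla, Tox and Nt5e are nearly even across libraries.

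Other transcripts with the most similar profile over the 6 libraries were sought for the 5 genes with a mean of at least 50, among 8137 genes with a mean of at least 100. The measure was the root mean square difference of the centred log2 values. For Nt5e the nearest were Dpp4 (0.057) and Tbc1d19 (0.061), and for Tox they were Trappc6b (0.024) and Casp2 (0.034). Btla was nearest to Slc24a5 (0.081) and Stk3 (0.088), and Lag3 to Il2rb (0.21) and Niban1 (0.24). Il2rb was at 2579, 1969 and 4727 in the knockout and at 1301, 1687 and 1669 in the wild type. For Entpd1 the nearest were Serpina3g (0.40), at 65.7, 51.0 and 502 in the knockout and 86.5, 36.3 and 78.8 in the wild type, and S100a6 (0.40). Among the 8 genes themselves the closest pair was Btla and Nt5e (0.21) and the next were Tox with Nt5e (0.22) and Lag3 with Tigit (0.30). These values describe 6 libraries that share the authors' scaling, and KO3 dominates the profiles of Lag3 and Entpd1.

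Around these 8 genes, 112 genes of 6 lists of related genes were tested, of which 3 rose and 1 fell in limma, where 1.19% of all rows rose and 0.315% fell. An unadjusted p under 0.05 was reached by 21 of the 112, where 12.7% of all rows reached it, and the median log2 fold change of the 112 was 0.099 against 0.0019 over all tested rows. Of 18 other inhibitory and costimulatory receptors and their partners, Cd200, which signals to an inhibitory receptor on myeloid cells, rose and 17 did not pass (list median 0.13). In limma 5 of the 18 had an unadjusted p under 0.05. Cd200 was at 2505 ± 192 in the knockout and 919 ± 126 in the wild type (SD, n = 3 each), a log2 fold change of 1.45. Its own receptor Cd200r1 was at 760 in the knockout and 1024 in the wild type without passing (log2 fold change -0.43, limma adjusted p 0.195). Lair1, a collagen receptor that inhibits leukocytes, was at 59.7 in the knockout and 111 in the wild type (log2 fold change -0.88, limma adjusted p 0.0829), and its groups did not overlap. The groups of Ctla4 also lay apart without passing, at 201 in the knockout and 141 in the wild type (limma adjusted p 0.263). So did those of Cd5, at 13070 in the knockout and 16053 in the wild type (limma adjusted p 0.276). Groups lay apart in 18.8% of all tested rows. Pdcd1, the receptor PD-1, named after its values were seen, was at 468, 408 and 677 in the knockout and at 304, 464 and 338 in the wild type, with a log2 fold change of 0.48 (limma adjusted p 0.423) and of 0.27 without KO3.

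Of 13 ligand genes, 0 passed in limma and 0 with voom weights (1.51% and 1.17% of all rows did), 3 had an unadjusted p under 0.05 (12.7% of all rows), and the median log2 fold change was 0.41, or 0.13 without KO3. Cd274, the ligand PD-L1, was at 2000 ± 234 in the knockout and 1580 ± 70.8 in the wild type (SD, n = 3 each; log2 fold change 0.33, limma adjusted p 0.218). Cd86, a costimulatory ligand, was at 710 in the knockout and 402 in the wild type (limma adjusted p 0.275). Pdcd1lg2, the ligand PD-L2, was at 137 in the knockout and 69.0 in the wild type, with a log2 fold change of 0.93 (limma adjusted p 0.322) and of 0.56 without KO3. Tnfrsf14, the partner of Btla and Cd160, was at 2726, 2078 and 1546 in KO1, KO2 and KO3, against 1606, 1640 and 1407 in the wild type. It was not called with all libraries (log2 fold change 0.41, limma adjusted p 0.411) and was higher without KO3 (0.62, limma adjusted p 0.0297), where 2.76% of all rows were called higher. The MHC class II genes, whose products Lag3 binds, turned with KO3. H2-Aa had a log2 fold change of 0.42 with it and -1.08 without it, called in neither.

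Of 20 signalling partners 0 passed in limma and 0 with voom weights, against the same 1.51% and 1.17% of all rows, and 3 had an unadjusted p under 0.05, against 12.7% (list median 0.050). Fyn, a kinase of the T cell receptor pathway, was at 298 in the knockout and 212 in the wild type (limma adjusted p 0.270), and the phosphatase Ptpn6, which inhibitory receptors recruit, had a log2 fold change of -0.09. Dgka (51226 in the knockout and 59860 in the wild type), Dok2 (2334 in the knockout and 2764 in the wild type) and Ptpn22 (1199.8 in the knockout and 983 in the wild type) did not pass. Without KO3 the adaptor Grb2 was called as higher (log2 fold change 0.48, limma adjusted p 0.0401), as were 2.76% of all rows.

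Of 30 other genes of extracellular purines and adenosine, Art2a rose, Ampd1 fell and 28 did not pass, with a list median of -0.014. Over all rows 1.19% rose and 0.315% fell. In limma 6 of the 30 had an unadjusted p under 0.05, where 12.7% of all rows did. Art2a, of a family of surface enzymes that attach ADP-ribose to proteins, was at 267, 262 and 189 in KO1, KO2 and KO3, against 41.8, 72.6 and 54.1 in the wild type, and was 2.09 higher on the log2 scale (SE 0.24, limma adjusted p 0.00308). Its close relative Art2b had a log2 fold change of -0.17 (adjusted p 0.721), and the sources used here do not say how reads shared by both were counted, so both are uncertain. Ampd1, an AMP deaminase that works inside the cell, was at 391.97, 459 and 532 in the knockout and at 819, 673 and 864 in the wild type (log2 fold change -0.77, SE 0.15, limma adjusted p 0.0464), and with voom weights it was not called (adjusted p 0.125). Acpp is an acid phosphatase that can also make adenosine. It was at 1393 ± 52.2 in the knockout and 1064 ± 125 in the wild type (SD, n = 3 each). Its groups lay apart, as in 18.8% of all tested rows, but it was not called (limma adjusted p 0.161). Entpd7, an intracellular relative of Entpd1, was at 419 in the knockout and 285 in the wild type (limma adjusted p 0.313), and the receptor P2ry10 at 12255 in the knockout and 10434 in the wild type (limma adjusted p 0.328). Cd38, an ectoenzyme that consumes NAD, was at 55.0, 48.1 and 230 in the knockout and at 30.7, 24.2 and 44.0 in the wild type, with a log2 fold change of 1.38 (limma adjusted p 0.347) and of 0.67 without KO3. The adenosine receptor Adora2a had a log2 fold change of 0.13 (limma adjusted p 0.755), and Dpp4, which holds adenosine deaminase on the cell surface, one of 0.18 (adjusted p 0.588).

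Of 20 relatives of Tox and transcription factors of exhausted T cells, 0 passed in limma and 0 with voom weights (1.51% and 1.17% of all rows), and 1 had an unadjusted p under 0.05, where 12.7% of all rows did (list median 0.16). That gene was Bhlhe40, at 103, 80.1 and 411 in the knockout and at 26.5, 16.5 and 57.9 in the wild type (log2 fold change 2.31, SE 0.64, limma adjusted p 0.163). Its groups did not overlap, as in 18.8% of all tested rows, and without KO3 the log2 fold change was 1.59 (limma adjusted p 0.0770). Nr4a3, Ikzf2 and Id3 had log2 fold changes of 0.56, 0.66 and -0.39 and did not pass, and Ikzf2 was at 0.23 without KO3. Without KO3, Id2 and Maf were called as lower, with log2 fold changes of -0.58 and -0.79 (limma adjusted p 0.0141 and 0.0139), where 1.55% of all rows were called lower. Of 15 anergy genes Nrp1, a semaphorin co-receptor, rose, at 4496 in the knockout and 370 in the wild type, and 14 did not pass (list median 0.19). Over all rows 1.19% rose. In limma 4 of the 15 had an unadjusted p under 0.05, where 12.7% of all rows did. Egr2, a factor of anergic cells, was at 1027 ± 70.2 in the knockout and 786 ± 24.3 in the wild type (SD, n = 3 each; log2 fold change 0.38, limma adjusted p 0.130), with no overlap. Tnfrsf9, a costimulatory receptor, was at 44.3, 46.6 and 89.3 in the knockout and at 27.9, 33 and 27.0 in the wild type, with a log2 fold change of 0.94 (limma adjusted p 0.270) and of 0.62 without KO3. Izumo1r, which with Nt5e is used to mark anergic CD4 T cells, was at 1886, 1704 and 2570 in the knockout and at 1689, 1380 and 1768 in the wild type (limma adjusted p 0.457). Without KO3, 1 anergy gene, Nrp1, rose and 1, Nedd4, a ubiquitin ligase, fell, with a log2 fold change of -0.90 (limma adjusted p 0.0433), against 0.09 with all libraries. Nedd4 was at 173, 152 and 1282 in KO1, KO2 and KO3.

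**Figure D4:**
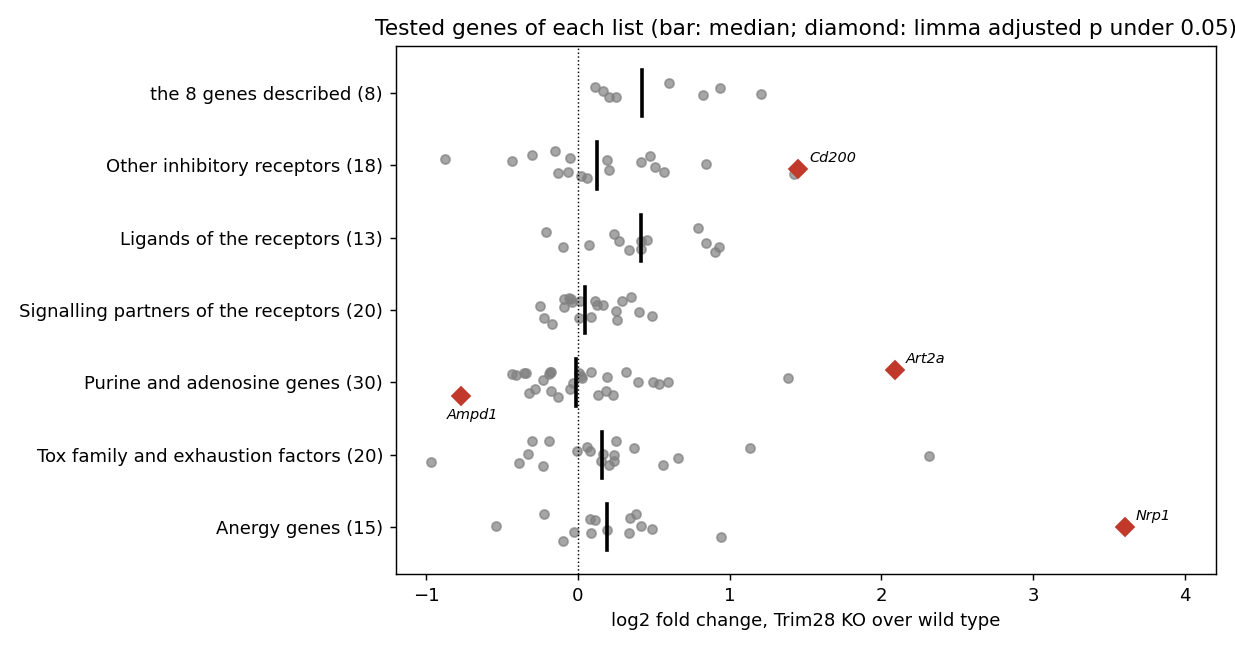
Log2 fold change of Trim28 knockout over wild type (horizontal axis) for each tested gene of the 8 described and of the 6 lists of related genes (rows, number of genes in brackets), with the median as a bar and genes past a limma adjusted p of 0.05 as labelled diamonds. The 4 called genes, Cd200, Art2a, Ampd1 and Nrp1, lie in 3 of the lists, and none of the 8 genes described is among them.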

How the data were processed

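Total RNA was sequenced in 3 Trim28 knockout and 3 wild-type libraries of naive CD4 T cells. The authors deposited 1 table of log10 values for 19048 transcript rows, and the tools HTSeq, STAR and DESeq2 and the build mm10 are named per the submitters' processing notes, without version or role. The log10 scale was found from the values, since 10 to the deposited value minus 1 gave, to within 0.01, whole multiples of 1 step in each library, for 100% of values, so reads could be recovered. Each value is therefore the log10 of 1 plus reads over a size factor. Rows were named from RefSeq (18811 rows) and GENCODE (104 rows), 133 stayed unnamed, and the row with the highest total stood for a gene. Transcript lengths came from GENCODE release M21.

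limma 3.58.1 in R 4.3.3 was fitted with the empirical Bayes trend, without covariates, to normalized read counts as log2 of the value plus 1, for rows with a mean of at least 10. The pseudocount understates changes of low genes. Rows were called at a two-sided Benjamini-Hochberg adjusted p under 0.05. The fit was tested on simulated data. Whether each library is a separate mouse is not in the labels, and p-values then cover only the spread among libraries, which may be technical. The 8 genes, the lists and the tests were chosen with earlier results of these data known. Named from each list were called genes and up to 4 others with the smallest p. Related genes beyond that rule were named after their values were seen. Alternatives were the pseudocount, the filter, 3 scalings, voom weights, the trend, a replicate block, Y-linked transcripts as a covariate, summed rows and leaving out each library.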

Additional observations from a re-analysis of the deposited data

How the results depend on the processing

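None of the 8 genes was called under any of the 18 other settings, and the smallest adjusted p was 0.203, for Lag3 without KO2. All kept a positive log2 fold change except Havcr2, which was -0.14 with a pseudocount of 0.5 and ran from -1.70 to 1.57 when each library was left out, below 0 without KO3 (-1.70), without WT1 (-0.099) and without WT2 (-0.45). A filter on a mean of at least 50 left out Tigit, Havcr2 and Cd160. Leaving out libraries moved Lag3 between 0.50 and 1.41, Tigit between 0.63 and 1.07, Cd160 between 0.08 and 0.93, Btla between 0.15 and 0.43, Tox between 0.11 and 0.26, Entpd1 between 0.42 and 1.70, and Nt5e between 0.06 and 0.26. Related genes called numbered 4 with all libraries and 3 to 9 when each library was left out, 9 without KO3, and the cause was not tested. Over all 13022 rows 196 were called, 124 without the trend and 114 to 562 when each library was left out, 562 without KO3. Ampd1 lost its call with voom weights, without the trend, with Y-linked transcripts as a covariate, with equal totals, with the replicate block, and without KO1, KO2, WT1, WT2 or WT3, at adjusted p from 0.0539 to 0.238.

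The labels do not say whether equal replicate numbers mark paired libraries. Deviations from the group means correlated at -0.31, 0.26 and 0.36 for numbers 1, 2 and 3. Pairs of unequal number ran from -0.44 (KO3 with WT2) to 0.37 (KO1 with WT2). With 3 libraries in a group the deviations depend on each other, so these correlations cannot decide whether libraries were paired. With the replicate block 0 of the 8 genes and 4 related genes were called, where 175 of all 13022 rows were. Bhlhe40 (limma adjusted p 0.00779) was among those 4 in place of Ampd1. Of the 8 genes 3, Lag3, Tigit and Entpd1, had an unadjusted p under 0.05 there. With Y-linked transcripts as a covariate 3 also did, Lag3, Tigit and Tox. The share of all rows under that p was not computed for these 2 settings, so neither count can be read as an excess. Few reads lie behind Havcr2 and Cd160, with 121 and 65 over the knockout libraries and 30 and 30 over the wild-type libraries.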
